A study of Mus musculus with 56 samples.

Results

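The chemokine genes Cxcl5 and Ccl20 were followed in keratinocytes of the mouse, the cells that build the epidermis, after treatment with TGF-β1, a growth-inhibiting cytokine of the transforming growth factor family. They are 2 of 6795 named genes measured, each carried by 1 probe that the platform annotation gives that name. They were chosen with their treated over untreated ratios in these arrays already known, so those ratios are given as a description, with no test.

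On each of the 56 arrays, RNA of TGF-β1 treated cells was hybridised in one dye and that of matching untreated cells in the other, so a value is a log2 ratio, treated over untreated, after subtraction of the median of its array. A value of 0 means equal levels, and a negative value means a lower level in the treated cells. Balb/c keratinocytes were compared at 1, 6, 24 and 48 h of TGF-β1 at 1 ng/ml, as ras keratinocytes and as primary keratinocytes. Arrays of Smad3 KO and Smad3 WT cells, given the strain C57B1/SVJ in the labels, were made at 48 h only, from ras and from primary cells of both genotypes.

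All cells, treated and untreated, came from the skin of newborn mice and were first grown as primary cultures. The ras cells had received the Ha-ras oncogene by a replication-defective retrovirus on day 3 of culture and were treated 4 days later, so both RNAs of a ras array carry the oncogene. They are transduced cultures and no clonal line. Both RNAs of a Smad3 KO array lack Smad3, which relays TGF-β receptor activity to its target genes. Treated RNA carried Cy5 on 49 arrays, 45 of them Balb/c, and these give the values below. It carried Cy3 on 7 arrays, whose sign is not settled by the sources used here, and these are given apart, as deposited.

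CXCL5 is a CXC chemokine of the group that attracts neutrophils through the receptor CXCR2. CCL20 is the ligand of CCR6 and attracts CCR6-bearing T helper cells, B cells and dendritic cells, Langerhans cell precursors among them. Keratinocytes are a known source of both, and IL-1, TNF and IL-17 acting through NF-κB are known inducers.

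The Cxcl5 probe, 648746_1, belongs to a gene of 2328 bp on chromosome 5 (chr5:90759298-90761625, GRCm38.p6). The Ccl20 probe, 651025_1, belongs to a gene of 2402 bp on chromosome 1 (chr1:83116766-83119167). For Cxcl5 no promoter entry was available, so its promoter was not searched. The 250 bases before the start of Ccl20 (RefSeq, GRCm38.p6, chr1:83116516-83116765, plus strand) are shown because a pattern of the NF-κB type, GGGNNNNNCC, lies in them, in capitals.
Ccl20: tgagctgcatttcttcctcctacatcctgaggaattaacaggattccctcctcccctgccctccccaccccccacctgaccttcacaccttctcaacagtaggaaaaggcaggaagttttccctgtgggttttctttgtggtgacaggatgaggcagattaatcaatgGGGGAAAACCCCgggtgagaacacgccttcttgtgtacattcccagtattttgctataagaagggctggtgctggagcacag
The capitals hold 4 overlapping matches on both strands, starting 82 to 80 bases before the gene. A TATAA match lies 28 bases before it, and TGANTCA, the AP-1 type, and CAGAC, a SMAD type, were not found on either strand in these letters. GGGNNNNNCC occurs in 45.8% of 32851 promoter windows of the same length, TATAA in 22.8%, TGANTCA in 6.75% and CAGAC in 42.2%. Of 27 chemokine genes with a promoter entry, 14 hold GGGNNNNNCC, and Cxcl10 and Cxcl9, described below, are among them.

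Agreement between arrays of a group was low, with a median correlation over all features of 0.02 to 0.30. Over all features 6 pairs of arrays of like orientation correlated under -0.3: primary 1 h replicate 3 with ras 24 h replicate 3 (-0.88), primary 6 h replicate 4 with primary 6 h replicate 2 (-0.36), ras 6 h replicates 3 and 8 and ras 24 h replicate 7 (-0.31 to -0.30), and ras 6 h replicate 6 with ras 48 h replicate 4 (-0.33). The direction of these 9 arrays is not settled by the sources used here, and each was turned in sign alone, a check added after seeing the data whose values stand beside the results. The pair at -0.88 is labelled with different cell types and times. Turning a sign does not address a wrong cell type or time label, or RNA shared between arrays. Neither was tested, and the 1 h comparison of cell types uses 1 array of that pair.

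As labelled, both genes lay below the untreated level at 1 h and at 6 h on every ras array with treated RNA in Cy5. At 6 h the 7 ras arrays gave Cxcl5 values from -2.29 to -0.35 with a median of -2.02. The Cxcl5 mean there was -1.77 ± 0.68 (SD, n = 7), a 3.42-fold lower level in treated ras cells, and 2 of the 8905 features had a lower mean. Of these 7 arrays 6 lie at -1.51 or lower and replicate 6 lies apart at -0.35.

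Ccl20 ranged from -2.29 to -0.07 on the same ras arrays, with a median of -1.09. Its mean was -1.27 ± 0.78 (SD, n = 7), a 2.41-fold lower level, and 9 features had a lower mean. The low Ccl20 arrays are not all those low in Cxcl5: replicate 7 had -2.27 for Cxcl5 and -0.07 for Ccl20. A value below 0 on all 7 ras arrays at 6 h was found for 2.31% of features. Since the genes were picked on these ratios, nothing is read from that share.

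At 1 h the 6 ras arrays gave Cxcl5 values from -1.94 to -0.21 with a median of -0.99, and a mean of -0.95 ± 0.65 (SD, n = 6). Ccl20 ranged from -1.97 to -0.03 with a median of -0.66, and its mean was -0.80 ± 0.68 (SD, n = 6). Replicate 2 was lowest for Cxcl5 and replicate 1 for Ccl20. For Cxcl5 22 features and for Ccl20 33 features had a lower mean, and 2.93% of features were below 0 on all 6 arrays. Nothing is read from that share either. Only 0.0786% of features passed the test at this time (limma, Benjamini-Hochberg adjusted p under 0.05 over 8905 features).

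At 24 h in ras cells Cxcl5 lay below 0 on 6 of 6 arrays, from -2.63 to -0.08 with a median of -0.44 and a mean of -0.95 ± 1.06 (SD, n = 6). The values split into 4 arrays at -0.61 or above and 2 at -1.91 and -2.63, and the mean is -0.61 without the lowest array, replicate 7. The share of features below 0 on all 6 arrays was not counted at this time. Ccl20 lay between -0.81 and 0.26 with a median of -0.35 and a mean of -0.33 ± 0.37 (SD, n = 6), below 0 on 5 of 6 arrays.

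At 48 h the 4 ras arrays disagreed in sign for both genes. Cxcl5 had -1.39, -0.57, 0.82 and 1.33 on replicates 1 to 4, with a mean of 0.05 ± 1.25 (SD, n = 4). Ccl20 had -0.23, 1.54, -0.81 and 0.51 on the same replicates, with a mean of 0.25 ± 1.02 (SD, n = 4). Replicates 2 and 3 had opposite signs for the 2 genes, and each mean is far smaller than its SD. In bulk RNA, fewer cells of a type and less RNA per cell cannot be told apart, at this time or any other.

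**Figure D1:**
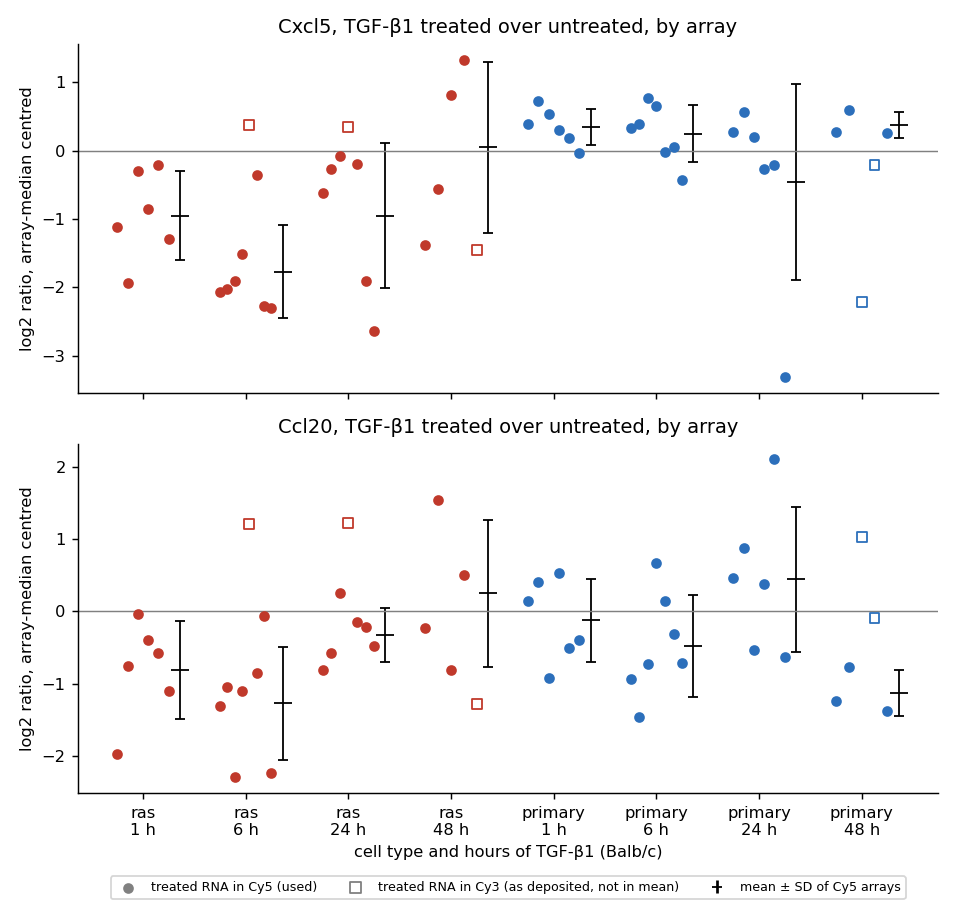
Log2 ratio of Cxcl5 (upper panel) and Ccl20 (lower panel) on every Balb/c array, treated over untreated, by cell type and hours of TGF-β1, with ras groups left of primary groups. Filled points are arrays with treated RNA in Cy5, with their mean ± SD in black, and open squares are arrays with treated RNA in Cy3 as deposited. All filled ras points at 1 and 6 h lie below 0 in both panels.

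In primary keratinocytes most early Cxcl5 values lay on the other side of 0. At 1 h its 6 values ran from -0.03 to 0.72 with a median of 0.34 and a mean of 0.35 ± 0.26 (SD, n = 6), above 0 on 5 arrays. At 6 h the 7 values ran from -0.43 to 0.77 with a median of 0.33 and a mean of 0.25 ± 0.42 (SD, n = 7), again above 0 on 5 arrays. The 1 h mean is larger than the SD of its arrays, and the 6 h mean is smaller than the SD of its arrays.

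At 24 h primary Cxcl5 ran from -3.31 to 0.57 with a median of -0.0043. The mean of -0.46 ± 1.43 (SD, n = 6) rests on replicate 6, while the other 5 lay at -0.27 or above, and it is 0.11 without that array. At 48 h the 3 values were 0.27, 0.59 and 0.25, a mean of 0.37 ± 0.19 (SD, n = 3), all above 0. The 2 primary 48 h arrays with reversed dyes read -2.21 and -0.21 as deposited, so the sign of the 48 h value depends on how those are read.

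Ccl20 in primary cells took another course. It was spread around 0 at 1 h, from -0.92 to 0.53 with a median of -0.12 (mean -0.12 ± 0.57, SD, n = 6). At 6 h it lay below 0 on 5 of 7 arrays, from -1.45 to 0.68 with a median of -0.71 (mean -0.47 ± 0.71, SD, n = 7). At 24 h it was above 0 on 4 of 6 arrays, from -0.62 to 2.10 with a median of 0.42 (mean 0.44 ± 1.00, SD, n = 6). Without replicate 5, the highest, the 24 h mean is 0.11.

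At 48 h the 3 primary values of Ccl20 were -1.24, -0.77 and -1.37. Their mean of -1.12 ± 0.32 (SD, n = 3) is a 2.18-fold lower level in treated cells, with 267 of 8905 features lower. All 3 arrays lie below every primary array at 24 h, and the means at 48 h and 24 h differ by -1.57. The share of all features that separate so was not counted, so nothing is read from the separation. At 48 h, 23.7% of features were below 0 on all 3 primary arrays, so the shared sign alone is common. The reversed arrays of this group read 1.03 and -0.09 for Ccl20 as deposited.

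The means moved when arrays of unsettled direction were turned. In ras cells at 6 h the Cxcl5 mean, -1.77 as the arrays were labelled, was -1.23, -1.67 and -1.12 with replicate 3, 6 and 8 turned, and the Ccl20 mean, -1.27, was -0.62, -1.03 and -0.63. At 24 h the ras means of Cxcl5 and Ccl20, -0.95 and -0.33, were -0.92 and -0.41 with replicate 3 turned and -0.07 and -0.17 with replicate 7 turned. At 48 h the ras means, 0.05 and 0.25, were -0.61 and -0.0019 with replicate 4 turned. In primary cells at 1 h the means, 0.35 and -0.12, were 0.17 and 0.18 with replicate 3 turned, so that Ccl20 changed sign. At 6 h the primary means, 0.25 and -0.47, were 0.14 and -0.06 with replicate 2 turned and 0.06 and -0.67 with replicate 4 turned.

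The ordered group means of Cxcl5 begin with ras 6 h (-1.77), ras 24 h (-0.95) and ras 1 h (-0.95). They go on with primary 24 h (-0.46), ras 48 h (0.05), primary 6 h (0.25), primary 1 h (0.35) and primary 48 h (0.37). For Ccl20 the order is ras 6 h (-1.27), primary 48 h (-1.12), ras 1 h (-0.80), primary 6 h (-0.47), ras 24 h (-0.33), primary 1 h (-0.12), ras 48 h (0.25) and primary 24 h (0.44). Every neighbouring pair in both orders overlaps in its array ranges.

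Set side by side at matched times, Cxcl5 separated the cell types at 1 h. The means were -0.95 in ras cells and 0.35 in primary cells, a difference of -1.30, and all 6 ras arrays lay below all 6 primary arrays. Such a complete separation in this direction was found for 0.157% of features. Since Cxcl5 was picked on these ratios, nothing is read from that share. With primary replicate 3 turned, its Cxcl5 value is -0.53, inside the ras range, and 4 of 6 ras arrays lie below every primary array. The difference is then -1.12, and 0.101% of features separate completely, Cxcl5 not among them. At 6 h the Cxcl5 means were -1.77 in ras cells and 0.25 in primary cells, a difference of -2.02, with 6 of 7 ras arrays below every primary array and replicate 6 inside the primary range. With ras replicate 3 or 8 turned the 6 h difference is -1.48 or -1.37, and 5 of 7 arrays lie below every primary array. The share of all features with such counts at 6 h was not taken. At 24 and 48 h the differences were -0.49 and -0.32, with overlapping ranges and SDs within groups of 1.26 and 0.97. The 24 h difference is -0.46 with ras replicate 3 turned, and changes sign to 0.39 with ras replicate 7 turned. With ras replicate 4 turned the 48 h difference is -0.99, and 3 of 4 ras arrays lie below every primary array.

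For Ccl20 the ras minus primary difference was -0.68 at 1 h, -0.79 at 6 h and -0.77 at 24 h, each with overlapping ranges and close in size to the SD within groups, 0.63 to 0.76. At 1 and 6 h these are smaller than the differences of Cxcl5, and at 24 and 48 h they are larger. With ras replicate 3 or 8 turned the 6 h difference of Ccl20 is -0.14 or -0.16. At 48 h it was 1.38, from means of 0.25 in ras cells and -1.12 in primary cells, against an SD of 0.81. The 24 h difference of Ccl20 is -0.86 or -0.61 with ras replicate 3 or 7 turned. Its 48 h difference is 1.12 with ras replicate 4 turned. The 2 genes thus lay on opposite sides at 48 h, with ras below primary for Cxcl5 and above it for Ccl20, on 4 and 3 arrays that overlap in both.

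The labels number the arrays in the authors' array database, and runs of near numbers, parted by gaps over 100, were used to compare ras with primary arrays entered close together. What else such a run shares is not given in the sources used here. At 1 h Cxcl5 was lower on the ras array in 5 of 5 runs, by differences from -2.66 to -0.39 with a median of -1.15, and in 4 of 5 with primary replicate 3 turned. At 6 h it was again lower in 5 of 5 runs, from -2.32 to -0.33 with a median of -2.22. The small difference at 6 h came from the run that holds ras replicate 6. With ras replicate 3, 6 or 8 turned, 4 of 5 runs had the lower value on the ras array. The share of all features with such run counts was not taken, so nothing is read from the counts.

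Within runs Ccl20 was lower on the ras array in 4 of 5 runs at 1 h, from -1.16 to 0.89, and in 4 of 5 runs at 6 h, from -1.52 to 0.24. With primary 1 h replicate 3 turned the first count is 5 of 5, and with ras 6 h replicate 3, 6 or 8 turned the second is 3 of 5. At 24 h each gene was lower on the ras array in 3 of 5 runs, and at 48 h each was in 1 of 3. With ras 48 h replicate 4 turned, Cxcl5 was lower in 2 of 3. One run, the only one with an array in all 8 groups, held the lowest Cxcl5 value of its group in 5 of them, ras 6 h, ras 24 h and primary 1, 6 and 24 h. It holds both the ras 24 h value of -2.63 and the primary 24 h value of -3.31. Without that array the ras 6 h mean of Cxcl5 is -1.69.

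**Figure D2:**
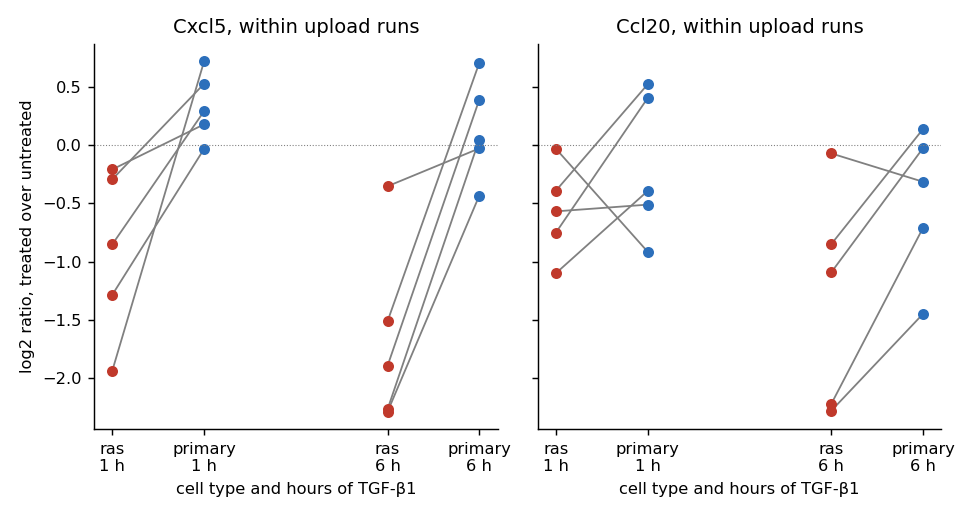
Cxcl5 (left) and Ccl20 (right) log2 ratios, treated over untreated, in ras cells and primary cells at 1 h and 6 h, with arrays of 1 run joined by a line and arrays of a group within a run averaged. Every Cxcl5 line goes up from ras to primary, in 5 of 5 runs at each time, and 4 of 5 Ccl20 lines do at each time.

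The 2 genes shared their sign early in ras cells. Both lay below 0 on 6 of 6 arrays at 1 h, 7 of 7 at 6 h, 5 of 6 at 24 h and 1 of 4 at 48 h. In primary cells they had opposite signs on 5 of 7 arrays at 6 h and 3 of 3 at 48 h. Over the 45 Balb/c arrays Spearman's rho between them was 0.28 and Pearson's r was 0.35. The coefficient of Spearman was 0.42 over the 23 ras arrays and -0.04 over the 22 primary arrays. These arrays share runs and cultures and fall into 8 groups, so rho describes them and carries no p.

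**Figure D3:**
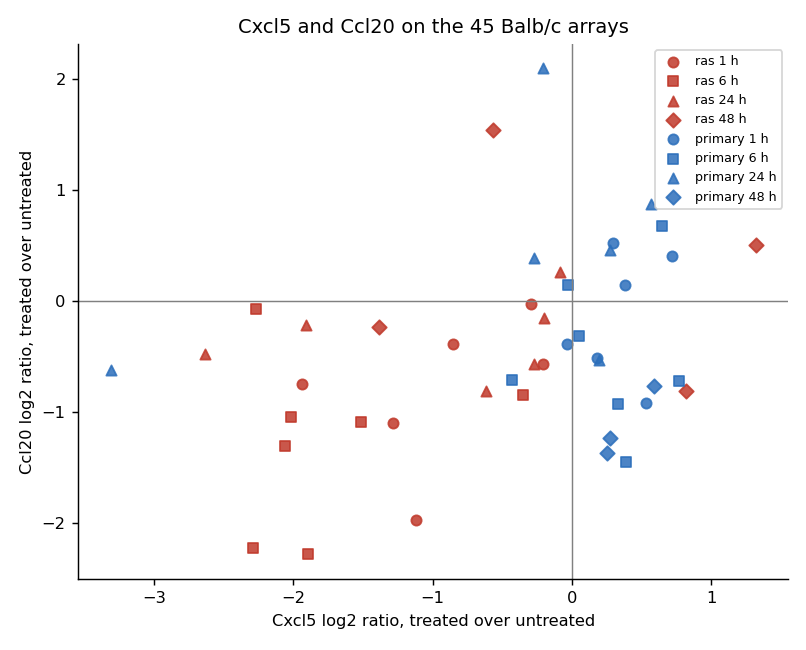
Log2 ratio of Cxcl5 (horizontal) against Ccl20 (vertical) on the 45 Balb/c arrays with treated RNA in Cy5, red for ras and blue for primary cells, with a shape per time. The ras arrays at 1 h (circles) and 6 h (squares) lie at the lower left, and the 3 primary 48 h diamonds lie at the lower right.

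Which genes tracked each chemokine was ranked by Spearman's rho over the same 45 arrays and 6794 other genes. For Cxcl5 the highest were Gdpd1 (0.66), Ppbp (0.66), Mcm10 (0.63), Cyp2e1 (0.62) and Flg (0.62), and the lowest were Wls (-0.68), Bcl2 (-0.66) and Foxn3 (-0.59). For Ccl20 the highest were Ephx2 (0.74), Mettl2 (0.74), Nsmf (0.63), Mapk10 (0.61) and Cdk18 (0.61), and the lowest were Bag3 (-0.65), Ostf1 (-0.63) and Lxn (-0.61). The 5 and 95 percentiles of all rho values were -0.37 and 0.32 for Cxcl5 and -0.38 and 0.34 for Ccl20. Of the 5 highest, 2 were also among the 5 highest by Pearson's r for each gene, and 0 were when 8 group means were used in place of arrays.

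Ppbp, whose product is the CXC chemokine CXCL7 of platelets, is the next gene after Cxcl5 and starts 9.22 kb away (chr5:90768518-90770063). Its similarity to Cxcl5 appeared within groups. The rho was 0.71 on deviations from group means, 0.30 over ras arrays and 0.58 over primary arrays. Leaving out the 2 lowest Ppbp arrays, a check added after seeing the data, gave a rho of 0.61 and an r of 0.42, against an r of 0.61 with them.

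The low Ppbp arrays were late ones. At 24 h Ppbp had -3.72 on ras replicate 7 and -5.80 on primary replicate 6, the 2 arrays of the run where Cxcl5 was lowest. Its ras means were -0.12 at 1 h, -0.33 at 6 h, -1.29 at 24 h and -1.59 at 48 h, with SDs of 0.60, 0.28, 1.57 and 1.93 (n = 6, 7, 6 and 4). At 6 h in ras cells, where Cxcl5 was lowest, Ppbp lay below 0 on 6 of 7 arrays, with a mean nearer 0 than at 24 and 48 h. Its lowest limma adjusted p over the 8 responses was 0.0855, in ras cells at 24 h.

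**Figure D4:**
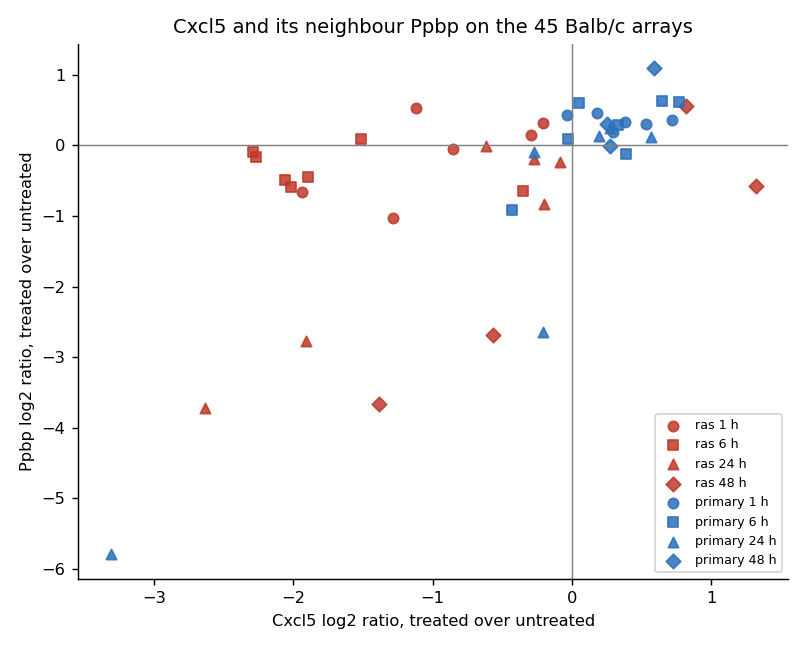
Log2 ratio of Cxcl5 (horizontal) against its neighbour Ppbp (vertical) on the 45 Balb/c arrays with treated RNA in Cy5, red for ras and blue for primary cells, with a shape per time. Arrays at 24 h (triangles) and 48 h (diamonds) run down to a Ppbp value of -5.80. The ras 6 h squares lie low for Cxcl5 and between -0.65 and 0.09 for Ppbp.

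Of 15 coding genes starting within 500 kb of Cxcl5, 5 were measured. Their rho with Cxcl5 was 0.25 for Alb, 0.27 for Afp, 0.32 for Afm, 0.66 for Ppbp and 0.12 for Cxcl15, a lung CXC chemokine gene of the same cluster. Of 7 coding genes within 500 kb of Ccl20, 2 were measured, with a rho of -0.09 for Mff and -0.52 for Agfg1. Cxcl1, Cxcl2, Cxcl3 and Pf4 of the Cxcl5 cluster, and the receptors Cxcr1, Cxcr2 and Ccr6, were not analysed here.

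Few other chemokine genes passed the test at the early times, when few features did. Of 36 others listed, 23 were measured. Over all 8905 features, 626 at 1 h and 1059 at 6 h in ras cells had an unadjusted p under 0.05. None passed the limma test in ras cells at 1 h, where 1 had an unadjusted p under 0.05 and 0.0786% of all features passed, and 1 did at 6 h, the time of the lowest Cxcl5 and Ccl20 values. The 1 is Ccl25, a thymus and gut chemokine, at -0.65 ± 0.17 (SE, limma adjusted p = 0.0325). Its call is lost without replicate 1, 2, 6, 7 or 8. At 6 h, 1.73% of all features passed. The median of the 23 at 6 h was -0.07, beside -0.0007 over all features.

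At 24 h in ras cells 3 of the 23 passed, beside 10.5% of all features. Cxcl10, a ligand of CXCR3, rose by 0.62 ± 0.17 (SE, limma adjusted p = 0.0196) and Ccl8 fell by 0.72 ± 0.23 (SE, limma adjusted p = 0.0387). Ccl3, a macrophage inflammatory protein, had a mean of 1.71 (limma adjusted p = 0.0259) that rests on an array at 6.60. Without that replicate 2 it is 0.73 and no longer passes, and its call is also lost without replicate 1. The calls of Cxcl10 and Ccl8 are lost without replicate 1, 6 or 7 and without replicate 1, 3, 5 or 7, in that order, and Ccl8 comes to between -0.82 and -0.47 with 1 array left out. At 48 h 4 of the 23 passed, beside 3.5% of all features: the monocyte attractants Ccl2 (1.38) and Ccl7 (1.42) rose, and Ccl22 (-0.97) and Cxcl9 (-1.14) fell. Ccl2 and Ccl7 pass without each array in turn. Cxcl9 does not pass without replicate 1 (-0.62) or 3, nor Ccl22 without replicate 1, 2 or 3.

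In primary cells none of the 23 passed at 1 h or 6 h with limma, where 2 and 6 had an unadjusted p under 0.05 and 0.0112% of all features passed at each time. Such an unadjusted p was found for 478 and 839 of the 8905 features. At 24 h Ccl2 (1.13) and Ccl7 (1.00) rose, beside 1.36% of all features. At 48 h 6 of the 23 passed, beside 8.6% of all features. Ccl7 rose by 3.07 ± 0.27 (SE, limma adjusted p = 5.46e-10), Ccl2 by 2.67 ± 0.30 (SE, limma adjusted p = 6.06e-08), Ccl9 by 1.48 and Cxcl10 by 1.17, and the skin chemokine Ccl27a had a mean of -1.35. All of these but Ccl9, which is 0.97 without replicate 2, pass without each array in turn. Ccl20 lay at -1.12 on the same 3 arrays and Cxcl5 at 0.37.

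Ccl5, the sixth, had a mean of -1.84 at 48 h in primary cells (limma adjusted p = 0.0269), but its 3 arrays ran from -6.34 to 0.50. Without replicate 1 its mean is 0.41. The ras minus primary difference at 48 h passed for 1 of the 23, Ccl7 at -1.65 (limma adjusted p = 0.0327), beside 0.202% of all features. Ccl7 averaged 1.42 in ras cells and 3.07 in primary cells, and was lower on the ras array in 3 of 3 runs, by differences from -1.80 to -1.54. With runs as a random block its adjusted p is 0.00971. It does not pass with arrays scaled to 1 spread (-1.23), with the replicate block (-1.65) or with the reversed arrays as deposited (-0.08). At 1, 6 and 24 h none of the 23 passed this comparison, in which 1, 1 and 4 had an unadjusted p under 0.05. Among all 8905 features, 371, 409 and 921 had one.

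**Figure D5:**
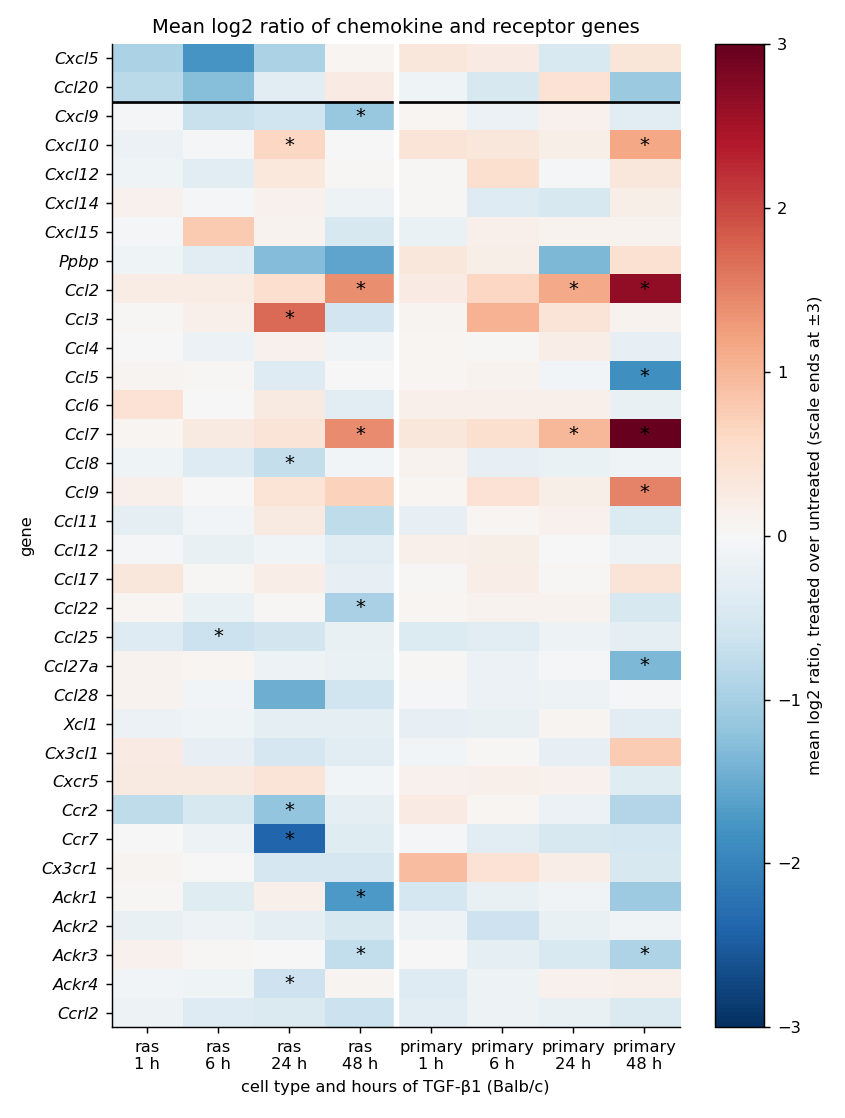
Mean log2 ratio, treated over untreated, of Cxcl5 and Ccl20 (above the line, not tested) and of the other measured chemokine and chemokine receptor genes in the 8 Balb/c groups, ras left of primary, in colour. A star marks a gene with a limma adjusted p under 0.05. The blue cells of Cxcl5 and Ccl20 at 1 and 6 h in ras cells have 1 star below them, that of Ccl25, and the deepest red cells are Ccl7 (3.07) and Ccl2 (2.67) in primary cells at 48 h.

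Of 23 chemokine receptors 9 were measured. None passed in ras cells at 1 or 6 h, where 1 at each time had an unadjusted p under 0.05, beside 626 and 1059 of 8905 features. In ras cells 3 of the 9 passed at 24 h, beside 10.5% of all features, and 2 at 48 h, beside 3.5%. In primary cells 1 passed at 48 h, beside 8.6% of all features. Ccr2, the receptor of Ccl2 and Ccl7, fell by 1.19 at 24 h in ras cells, and had -0.84, no longer passing, without replicate 1, nor did it pass without replicate 3. Ccr7 had -2.37 there, resting on replicate 1 at -9.35, and -0.98 without it. Ackr1 had -1.72 in ras cells at 48 h (limma adjusted p = 0.00887), below 0 on 4 of 4 arrays. Its call is lost without replicate 1. The scavenging receptor Ackr3 fell by 0.73 in ras cells and by 0.93 in primary cells at 48 h, calls that are lost without any 1 of the 4 ras arrays and without primary replicate 2 or 5.

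Genes of pathways known to induce Cxcl5 and Ccl20 were read from the gene lists beside the shares of all features that passed, 0.0786% at 1 h and 1.73% at 6 h in ras cells and 0.0112% at each time in primary cells. An unadjusted p under 0.05 was found for 626 and 1059 of 8905 features in ras cells at 1 and 6 h. In primary cells it was found for 478 and 839. These counts belong beside the unadjusted counts of every list below. Of the NF-κB pathway list 12 of 20 members were measured and none passed at 1 or 6 h in either cell type, with 1 and 2 in ras cells and 2 and 2 in primary cells at an unadjusted p under 0.05. Later, Nfkbia, the inhibitor IκBα, rose by 0.64 in ras cells at 48 h, and Bcl3, an atypical IκB, fell by 1.18 in primary cells at 48 h. The first call is lost without replicate 1 or 3 and the second without replicate 1 or 2. Nfkbiz, which encodes IκBζ, had -2.33 in ras cells at 24 h, and -0.97 without replicate 6, where it does not pass.

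Of the IL-1, IL-6, IL-17 and TNF signalling list 14 of 31 were measured and none passed at 1 or 6 h, with 0 and 5 in ras cells and 3 and 4 in primary cells at an unadjusted p under 0.05. Il33, an alarmin of the IL-1 family, fell by 1.03 at 24 h and 2.02 at 48 h in ras cells and by 1.93 at 48 h in primary cells. Il18 fell at 48 h, with means of -1.30 in ras cells, not passing without replicate 1 or 3, and -1.496 in primary cells. Tnf rose by 1.27 in ras cells at 48 h (limma adjusted p = 0.000726), when Cxcl5 and Ccl20 were divided in sign.

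Of 13 measured epidermal inflammatory effectors of 16, none passed at 1 or 6 h, with 0 and 3 in ras cells and 0 and 1 in primary cells at an unadjusted p under 0.05. Defb1, a β-defensin, fell by 1.25 in ras cells at 48 h, below 0 on 3 of 4 arrays, and fell by 3.34 in primary cells at 48 h. Mmp9, a gelatinase, rose by 1.81 in ras cells and by 2.74 in primary cells at 48 h. Both ras calls at 48 h are lost without replicate 1 or 3, and with 1 array left out Mmp9 comes to between 0.91 and 2.53. At 24 h Defb1 had -1.54 in ras and -1.39 in primary cells, beside 10.5% and 1.36% of all features passing. Both of these 24 h calls pass without each array in turn. Mmp9 had 1.08 in ras cells at 24 h, a call lost without replicate 1, 5, 6 or 7. Of 12 measured EGFR ligands and ERK feedback genes of 23, 1 passed at 1 h in ras cells: Ier3, an immediate early gene, fell by 0.95 (limma adjusted p = 0.0158) and lay below 0 on 6 of 6 arrays, as Cxcl5 and Ccl20 did. Its call is lost without replicate 2, 4 or 6.

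TGF-β and SMAD target genes were among those that passed at the early times in ras cells. Of 25 listed 20 were measured. In ras cells 4 rose at 1 h and 7 at 6 h, beside 0.0786% and 1.73% of all features, among them Smad7, the inhibitory SMAD (1.16 and 0.86), and Skil, a SMAD corepressor (1.34 and 0.96). Skil passed without each array in turn at 6 h, and the other 3 of these calls are lost without at least 1 array. In primary cells Klf10 alone passed at 1 h, at 0.84 and not without replicate 3, 4, 5 or 6, and none did at 6 h with limma, where 6 had an unadjusted p under 0.05. The difference between cell types passed for none of the 20 at 1 or 6 h, with 0 and 4 at an unadjusted p under 0.05. For that difference 371 and 409 of 8905 features had such a p.

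Markers of other cells were read on the same arrays, as ratios that say nothing of their level. Among 9 myeloid and neutrophil markers of 16 measured, none passed at 1 or 6 h in either cell type, with 0 and 1 in ras cells and 1 and 1 in primary cells at an unadjusted p under 0.05. Their mean over the list lay between -0.22 and 0.10 on the ras 1 h arrays and between -0.37 and 0.10 on the ras 6 h arrays. At 48 h in primary cells 4 of the 9 passed, beside 8.6% of all features: Lyz2 rose by 2.59, Tyrobp by 1.01 and Fcer1g by 0.77, while Spi1 had -2.23, and -0.0073 without replicate 1. Tyrobp and Fcer1g do not pass without replicate 2, and Fcer1g comes to between 0.45 and 1.09 with 1 array left out. The list's mean there ran from -0.35 to 0.93, beside Ccl20 at -1.12, and its part in the result was not tested.

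Fibroblast markers, 8 measured of 10, had list means between 0.43 and 0.73 on the primary 48 h arrays, where Mfap5 rose by 1.77 and Col1a2 by 1.83 (not passing without replicate 1 or 2), and between -0.30 and 0.23 on the ras 6 h arrays, where none passed. Keratinocyte markers, 9 measured of 14, had list means between -0.88 and -0.36 on the primary 48 h arrays and between 0.03 and 0.31 on the ras 6 h arrays. T cell, B cell and Langerhans cell markers, 11 measured of 15, ran from -0.39 to 0.0045 and from -0.14 to 0.63 on those arrays. Their parts in the values of Cxcl5 and Ccl20 were not tested.

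On the Smad3 arrays, 1 for each genotype in each cell type at 48 h and so with no replicate check, the genes gave no common order. In ras cells Cxcl5 had -0.60 in Smad3 KO and 0.71 in Smad3 WT cells, and in primary cells -1.03 in Smad3 KO and -0.56 in Smad3 WT cells. Ccl20 had -0.36 in Smad3 KO and -0.12 in Smad3 WT ras cells. In primary cells it had 0.46 in Smad3 KO and -1.01 in Smad3 WT cells. The Smad3 WT primary value of Ccl20 lies inside the range of the 3 Balb/c primary arrays at 48 h. That of Cxcl5, -0.56, lies below all 3, which read 0.25 to 0.59.

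The reversed-dye Smad3 KO arrays read 1.64 for Cxcl5 and 0.50 for Ccl20 in ras cells, and 0.51 and -0.83 in primary cells, as deposited. All 4 have the opposite sign to the other Smad3 KO array of their cell type. Smad3 itself read -0.68 in KO and -0.31 in WT ras cells and -2.79 in KO and -0.84 in WT primary cells, but both RNAs of an array share a genotype, so this ratio checks no label. Tgfb1, the gene of the cytokine itself, read 5.69 in KO and 0.26 in WT ras cells and -0.75 in KO and -0.38 in WT primary cells, while the reversed-dye KO arrays read -1.31 in ras and -3.92 in primary cells as deposited.

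The reversed Balb/c arrays, also as deposited, gave Cxcl5 and Ccl20 values of 0.37 and 1.21 in ras cells at 6 h, 0.35 and 1.22 at 24 h, and -1.45 and -1.28 at 48 h. At 6 h these are the reverse in sign of all 7 other ras arrays. Over all features, the 5 reversed Balb/c arrays correlated with the mean of their group at -0.07 to 0.13, and the 2 Smad3 KO ones at 0.41 and 0.48. With no reversed array in the means, a preference of a probe for 1 dye cannot be told apart from a response, while a constant one cancels in a difference between cell types.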

How the data were processed

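The deposited log2 ratios, 1 per probe and array for 9596 probes on 56 arrays with no missing value, were made by the authors. How they scanned, corrected, filtered and normalized the arrays, and the log base, is not given in the sources used here; base 2 is assumed. Treated over untreated is the likely direction, from the channel order in the labels. Spot brightness was not used, so faint spots were not set apart, and the stated SD and SE rest on the spread and number of arrays alone.

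Gene names come from the platform annotation (7486 probes with 1 symbol, 483 with several, 1627 with none), and 7395 of the 7486 matched RefSeq. Values were centred on the array median and averaged per gene. limma 3.58.1 in R 4.3.3 fitted all 49 arrays with treated RNA in Cy5 together, with two-sided tests adjusted by Benjamini-Hochberg over 8905 features, and was tested on simulated data. Some arrays may repeat the same RNA, in which case a p-value reflects array spread alone. Same-numbered arrays did not pair: over 19 pairs the deviations correlated at a median of 0.05, and 5 pairs were over 0.1. Of 19 ras and primary pairs of 1 run, 14 were over 0.1, at a median of 0.14, and runs as a random block were an alternative fit.

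The members and gene lists were chosen with earlier results of these data known. Genes named beside the members are called genes of each list, at most 4 by size plus those counted in the text, the nearest ligands and receptors by role, the 5 highest and 3 lowest by Spearman's rho, and Smad3 and Tgfb1. Genes named beyond these were chosen after their values were seen: Ccl22, Ccl8, Ccl9, Ccl25, Ccl27a, Fcer1g, Klf10, Skil, Smad7 and the mapped neighbours.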

Additional observations from a re-analysis of the deposited data

Results flagged for a closer look

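Of 7 groups of 4 to 7 arrays examined for each of Cxcl5 and Ccl20, 14 sets in all, 2 held an array far from the others. The rule flags about 1 set in 20 by chance. The 2 genes share their arrays and were picked on these ratios, so the count is not weighed against that rate. Cxcl5 read -0.35 on ras 6 h replicate 6, whose nearest neighbour was -1.51. It read -3.31 on primary 24 h replicate 6, whose nearest neighbour was -0.27.

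Between genotypes the single arrays moved in opposite directions in 2 cases, and these differences were not tested. Cxcl5 in ras cells at 48 h read -0.60 in Smad3 KO and 0.71 in Smad3 WT cells, a difference of -1.31. Ccl20 in primary cells at 48 h read 0.46 in Smad3 KO and -1.01 in Smad3 WT cells, a difference of 1.47.

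The ras minus primary difference at 48 h passed the limma test for 4 genes of the lists: Ccl7 at -1.65, Lyz2 at -1.63, Mfap5 at -1.44 and Timp1 at -2.06. All 4 means were lower in ras than in primary cells: Ccl7 had 1.42 in ras and 3.07 in primary cells, Lyz2 0.96 in ras and 2.59 in primary cells, Mfap5 0.33 in ras and 1.77 in primary cells, and Timp1 0.61 in ras and 2.66 in primary cells. In ras cells Mfap5 and Timp1 did not pass.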

How the results depend on the processing

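For the 16 responses of Cxcl5 and Ccl20, 268 alternative values were computed. Of these 261 stayed within 1 SD of the value given and 253 kept its sign. The SD is that of the same arrays, so leaving out 1 array or taking the median cannot move a mean beyond it. Some alternatives left the arrays of a group unchanged. Cxcl5 in ras cells at 24 h also counts as within 1 SD when it goes from -0.95 to -0.07. The count of 261 is thus no measure of stability. In ras cells at 1, 6 and 24 h every alternative run kept both genes below 0: at 6 h Cxcl5 ranged from -2.02 to -1.12 and Ccl20 from -1.47 to -0.62, and at 1 h from -1.20 to -0.57 and from -0.96 to -0.52. Values beyond 1 SD were those of Cxcl5 in primary cells at 1 h (0.73 with the reversed arrays turned and a dye term) and at 48 h, and of Ccl20 in primary cells at 48 h (-0.49 with the reversed arrays as deposited). Cxcl5 in primary cells at 48 h was 0.14 with replicate number as a block, -0.26 with the reversed arrays as deposited, 0.71 with them turned, 0.78 with them turned and a dye term, and 0.58 with runs as a random block. The replicate block is given although the numbers do not pair the arrays.

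The Smad3 KO minus Smad3 WT difference became, with the reversed KO array averaged in as deposited and then turned, 0.30 and -0.21 for Cxcl5 and 0.82 and 1.66 for Ccl20 in primary cells, and -0.19 and -1.83 for Cxcl5 and 0.19 and -0.31 for Ccl20 in ras cells.

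Counts of other chemokines that passed were less stable. At 6 h in ras cells the count of 1 became 2 with array weights or arrays scaled to 1 spread, 0 with the replicate block, with the reversed arrays in any of 3 ways or with the sign of array 3, 6 or 8 turned, and 0 to 1 leaving out a replicate. At 24 h in ras cells the count of 3 became 0 with scaling, with each group alone, with the dye term, with the sign of array 7 turned or without the 2 widest arrays, 1 with the replicate block or the reversed arrays as deposited or turned, 5 with runs as a random block, and 0 to 6 leaving out a replicate (6 without replicate 3). At 48 h in ras cells 4 became 2 with scaling or the reversed arrays in any way, 0 with each group alone, 1 with the sign of array 4 turned, and 2 to 4 leaving out a replicate. In primary cells 0 became 1 at 6 h with the sign of array 4 turned, and the 2 at 24 h and 6 at 48 h became 0 with each group alone or with the reversed arrays as deposited.

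Directions reversed for 4 single genes in primary cells at 48 h: Ccl5 (-3.01 to 0.41 leaving out a replicate), Krt16 (-1.84 to 0.085), Cd8a (-2.65 to 0.025), and Trp63 (0.0018 with the reversed arrays as deposited). All 41 of the largest calls of the lists were lost when each group was fitted alone, a fit on 3 to 7 arrays. Of 101 calls of list genes in the 8 responses, 30 passed without each array in turn. The 48 h differences between cell types of Ccl7, Lyz2, Mfap5 and Timp1 all passed with runs as a random block, and none did with scaling (-1.68 to -1.17) or the reversed arrays as deposited (-0.52 to -0.08). The cause of the other changes was not tested. Turning single arrays was chosen after seeing the data. The planned comparison of several probes per gene was not run, since each member has 1 probe, and a filter on missing values had none to remove. Features passing ranged over the alternatives from 0 to 1203 at 6 h in ras cells.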
